A study of Gallus gallus with 6 samples.

Results

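The contrast described here set leg muscle at embryonic day 16 (E16) against the average of embryonic day 11 (E11) and day 1 after hatching (P1), on log2 normalized counts of microRNAs (miRNAs). It used all 6 samples of the series: the 2 E16 samples were set against the mean of the 2 E11 samples and the mean of the 2 P1 samples. The tissue was leg muscle of untreated Gallus gallus of the Xinghua chicken breed, and all samples were labelled female. Every one of the 846 listed entries entered the contrast, with a count of 0 where a library did not list it, and 289 passed the filter on low counts and were tested. The question was which miRNAs peak or dip at E16, and which move mostly before or mostly after it.

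MiRNAs are short RNAs that guide Argonaute proteins to messenger RNAs and lower their output. In embryonic muscle, myoblasts fuse into multinucleated fibres, and a small set of muscle miRNAs, miR-1, miR-133, miR-206 and miR-499, accumulates as fibres form and mature. In the days before hatching, secondary fibres are added around the primary ones. Because the contrast equals the step before E16 (E16 minus E11) less the step after it (P1 minus E16), divided by 2, its test is also the test of whether the 2 steps differ. A positive contrast alone is therefore no peak: a miRNA that rises early and then levels off has one too. The step before E16 lasts 5 days, the length of the second step in days is not given by the labels, and the steps are compared as wholes and not per day.

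The libraries were shallowest at E11 (303556 and 589154 counts) and deepest at P1 (2641042 and 2201359), with E16 between them (1202481 and 948589), so scarce miRNAs were least precise at E11. Levels below are CPM, counts scaled to a common library total with TMM factors. Muscle-enriched miRNAs took from 1.04% to 15.4% of the counts of a library, so the tissue's defining markers were present at each age. Epithelial miRNAs, 8 arms of the miR-200 and miR-429 family, miR-203 and miR-205, took 1.18% and 1.21% of counts at E11, 0.0447% and 0.0158% at E16, then 0.0997% and 0.00309% at P1. Of the 8, miR-429-5p had no count outside E11 replicate 2, miR-200a-3p had none in E16 replicate 2 and miR-200a-5p had none in P1 replicate 2. The libraries labelled P1 replicates 1 and 2 were not alike in another way. miR-2954, a Z-linked miRNA known in birds to be higher in males, had 8672 CPM in P1 replicate 2 and between 307 and 437 CPM in the other 5 libraries, although all are labelled female. The counts of calls in the contrast and for P1 against E11 are therefore also given without that library. For the steps before and after E16 no separate count without it is given. Values of miR-133a-3p, miR-133a-5p, miR-1a-3p and miR-2954 without it are given too. For the other muscle miRNAs such values are not given. In whole muscle, fewer cells of a type and less RNA per cell cannot be told apart.

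No miRNA was called higher or lower at E16 than the average of the ages on either side. Of 289 entries 0 (0%) passed edgeR's quasi-likelihood F-test, where the smallest Benjamini-Hochberg adjusted p was 0.221. At an unadjusted p under 0.05 there were 22 entries (7.61%), 8 with E16 higher (2.77%) and 14 with E16 lower (4.84%), and 16 of the 22 had a miRNA name. DESeq2 called 3: let-7b with E16 higher, and miR-205b and 1 unnamed entry with E16 lower. Without the filter on low counts edgeR called 13. The named ones were let-7b and miR-133a-3p with E16 higher, and miR-31-5p, miR-200a-3p, miR-203a, miR-205a, miR-205b and miR-429-3p with E16 lower. Among the 13, edgeR also called an unnamed entry with nearly the same counts as miR-31-5p. Without P1 replicate 2 it called 0, with 25 at an unadjusted p under 0.05.

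A peak or dip proper needs both steps to stand out in opposite directions. By that stricter test 0 of 289 entries passed after adjustment (edgeR, 0%), and 2 had both steps at an unadjusted p under 0.05 (0.692%), miR-1737 upward and miR-383-5p downward. DESeq2 also called 0. By fitted means, 94 entries went up in both steps and 83 went down in both, while 48 were highest and 64 lowest at E16. Because both steps use the E16 libraries, a chance high or low value there moves an entry toward a peak or a dip. Both E16 libraries lay above all 4 others for 13 entries (4.5%), 10 of them named, and below all 4 for 14 (4.84%), 11 of them named. The precision was limited: the 95% interval of the contrast had a median half-width of 1.14 on the log2 scale. It lay wholly between -1 and 1 for 34 entries (11.8%), 29 of which were among the 83 entries that averaged at least 1000 CPM.

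**Figure D1:**
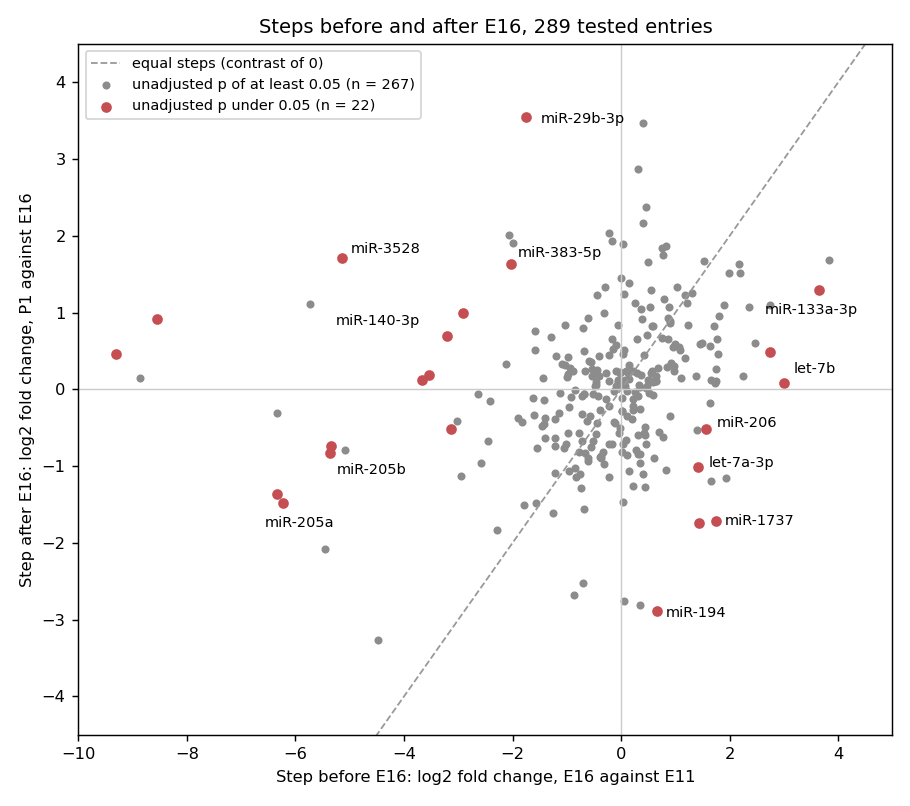
Step after E16 (log2 fold change, P1 against E16) plotted against the step before it (E16 against E11) for the 289 tested entries; the dashed line marks equal steps, a contrast of 0. The 22 entries at an unadjusted p under 0.05 are red, and let-7b (3.01 before E16, 0.09 after) and miR-205b (-5.37, -0.82) lie far from the line, with most of their difference before E16.

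The miRNAs nearest to a peak at E16 were scarce. miR-1737 had 11.7 and 5.77 CPM at E11, 26.4 and 28.9 CPM at E16, then 8.19 and 8.48 CPM at P1. Both E16 libraries lay above the other 4, and the 2 flanking ages were on a level. Its contrast was 1.73 (SE 0.43, 95% interval 0.72 to 2.75, edgeR Benjamini-Hochberg adjusted p = 0.321), made of a step of 1.75 before E16 and -1.72 after it. These values rest on 33 and 28 counts at E16 and 4 and 4 at E11. miR-1736-3p had 2.92 and 8.65 CPM at E11, 23.2 and 11.4 at E16, then 5.17 and 5.09 at P1, with a contrast of 1.59 (SE 0.52). Its E16 libraries were also the highest of the 6, though they differed from each other by more than the E11 and P1 libraries did in CPM.

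let-7a-3p, the passenger arm of let-7a, had 20.4 and 17.3 CPM at E11, 40.0 and 59.9 CPM at E16, then 22.8 and 26.6 CPM at P1. E16 did not overlap with either age, and the contrast was 1.21 (SE 0.41, 95% interval 0.26 to 2.16, edgeR adjusted p = 0.477). The other arm, let-7a-5p, had a contrast of 0.27 (95% interval -0.48 to 1.01), and the difference between the arms was not tested. miR-194, abundant in liver and gut epithelium in mammals, had 23.4 and 7.21 CPM at E11, 28.0 and 16.5 at E16, then 3.02 and 2.83 at P1. Its E11 and E16 levels overlapped, and P1 lay below both. Its contrast of 1.78 (SE 0.54) came from a step after E16 of -2.89, which did not pass (edgeR adjusted p of the contrast 0.455). miR-215-5p, which lies beside miR-194 in the RefSeq annotation of assembly GRCg7b and was looked up after miR-194 was seen, had 353 and 28.8 CPM at E11, 261 and 219.9 at E16, then 31.9 and 36.7 at P1. Its E11 libraries lay far apart, and its contrast was 1.57 (95% interval -0.35 to 3.50).

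Of the other named entries with E16 on top, miR-15c-5p, miR-16-5p and miR-16c-5p belong to the miR-15 and miR-16 family, which targets cell-cycle genes. miR-16-5p had 4661 and 4818 CPM at E11, 5443 and 5561 at E16, then 4204 and 4919 at P1. Both E16 libraries were highest, but the contrast was only 0.24 (95% interval -0.37 to 0.85). All 5 tested members of the family had a contrast above 0, against 46.7% of all tested entries, with a median of 0.24 against -0.04 over all tested. None had an unadjusted p under 0.05. The other tested members, miR-15a and miR-15b-5p, were ordered from E11 through E16 to P1 without overlap. Their means at E11, E16 and P1 were 447, 895 and 1344 CPM for miR-15a and 432, 692 and 837 CPM for miR-15b-5p. The genes of miR-15a, miR-15b-5p and miR-15c-5p each lie beside a miR-16 or miR-16c gene in RefSeq, so the members are not independent. miR-30a-3p (0.70), miR-1684b-3p (1.43), miR-1769-3p (0.86) and miR-1456-5p (0.59) completed the 10, and their intervals all included 0. Single libraries carried some of these values: that of miR-1684b-3p was 4.87 when E11 replicate 2 was left out and 0.77 when E16 replicate 1 was, and that of miR-1769-3p was 0.47 without P1 replicate 1 and 2.05 without P1 replicate 2.

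**Figure D2:**
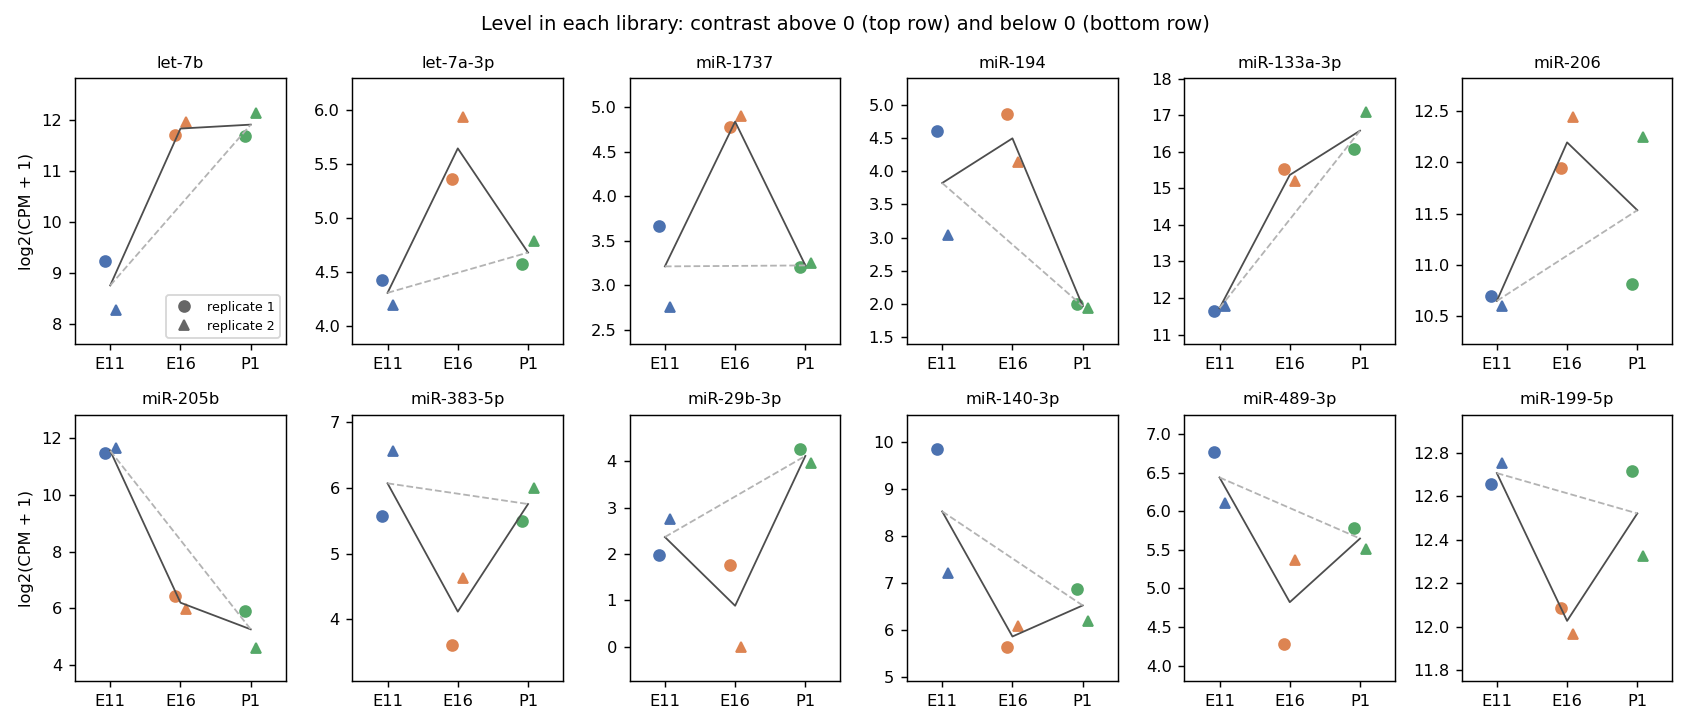
log2(CPM + 1) of 12 miRNAs in each library (circles replicate 1, triangles replicate 2; E11 blue, E16 orange, P1 green), with a solid line through the means of the ages and a dashed line from the E11 mean to the P1 mean. The top row holds miRNAs with a positive contrast and the bottom row those with a negative one, so E16 lies off the dashed line in all 12 by choice. The plotted means are highest at E16 for miR-1737, let-7a-3p, miR-194 and miR-206. They are lowest at E16 for miR-383-5p, miR-29b-3p, miR-140-3p, miR-489-3p and miR-199-5p. They bend in a one-way course for let-7b, miR-133a-3p and miR-205b. None passed in the contrast or in the test for a peak or dip (edgeR, after adjustment).

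On the low side, miR-383-5p came nearest to a dip. It had 46.7 and 93.7 CPM at E11, 11.19 and 23.8 CPM at E16, then 44.4 and 63.3 CPM at P1. Both E16 libraries lay below the other 4, and E11 and P1 overlapped. The contrast was -1.83 (SE 0.56, 95% interval -3.15 to -0.51, edgeR adjusted p = 0.455), with steps of -2.04 and 1.63. miR-489-3p, known in mouse for keeping muscle stem cells quiescent, had 108 and 67.8 CPM at E11, 18.4 and 40.3 at E16, then 53.9 and 44.7 at P1. Its E16 libraries were the lowest of the 6 and its contrast was -1.17 (95% interval -2.35 to 0.02).

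miR-29b-3p, whose family targets collagen messages, had 1 and 4 counts at E11, 3 and 0 at E16, then 42 and 26 at P1. The ratio of P1 to E16 was 12.3, with a 95% interval of 4.04 to 61.1 for counting error only. That of E11 to E16 was 3.57, with an interval of 0.695 to 22.99, so the first step was not detectable at this depth. miR-3528 had a summed count of 21 at E11, 1 at E16 and only 7 at P1. Its ratio of E11 to E16 was 45.0 (95% interval 7.24 to 1861) and that of P1 to E16 was 3.80 (0.488 to 171), so the return after E16 was within counting error. miR-1625-5p had 37.97 and 20.18 CPM at E11, 0.80 and 4.13 at E16, then 3.02 and 2.26 at P1. Its E16 and P1 libraries overlapped, and its contrast was -1.87 (SE 0.73, edgeR adjusted p = 0.557), and it ran from -3.19 to -1.02 when either E16 library was left out. For miR-1677-3p the counts summed to 20 at E11 but 3 at E16. The ratio of these ages was 14.3 (4.24 to 75.1, counting error only), and that of P1 to E16 was 1.09 (0.232 to 6.71).

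miR-140-3p, the cartilage miRNA, had 914 and 145.6 CPM at E11, 48.8 and 66.1 at E16, then 115 and 71.2 at P1. E16 was lowest, but the second E16 library and the second P1 library lay close, and the contrast was -1.95 (SE 0.80) with all libraries and -0.93 without E11 replicate 1. The other cartilage members tested also had contrasts below 0 but no dip, miR-455-3p with -0.70 and miR-455-5p with -0.41. Their means fell at both steps. At E11, E16 and P1 they were 348, 97.6 and 72.7 CPM for miR-455-3p and 2847, 1226 and 935 CPM for miR-455-5p. The cartilage list took 0.525% and 0.329% of counts at E11 and between 0.0872% and 0.148% in the later libraries. miR-199-5p, of mesenchymal and connective tissue cells, was the most abundant named entry with E16 lowest. It had 6460 and 6910 CPM at E11, 4345 and 4009 at E16, then 6735 and 5127 at P1, and its contrast was -0.59 (SE 0.28, 95% interval -1.24 to 0.06). miR-199-3p and miR-214, the other mesenchymal members tested, had -0.23 and -0.56. The means of miR-199-3p showed no dip, with 241, 249 and 357 CPM at E11, E16 and P1. Those of miR-214 were 531, 288 and 341 CPM, and its E16 and P1 libraries overlapped. miR-221-3p (-0.68), miR-107-3p (-0.35), miR-30c-1-3p (-0.84), miR-3525 (-0.98) and miR-6615-5p (-0.46), with miR-3528, were the remaining named entries with both E16 libraries lowest.

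Among muscle miRNAs, 0 of 10 passed in the contrast. Their median step was 2.26 before E16 and 1.09 after it on the log2 scale, against -0.026 and 0.090 over all tested entries. Between E11 and E16, 5 of the 10 passed as higher at E16 (edgeR adjusted p under 0.05), against 2.42% of all tested entries. At an unadjusted p under 0.05 in edgeR there were 9 of the 10, against 27 of 289 entries. miR-133a-3p, processed together with miR-1, had 3221 and 3545 CPM at E11, 47332 and 37543 CPM at E16, then 68326 and 139213 CPM at P1. The ages followed one another without overlap. Its step before E16 was 3.65 and its step after E16 was 1.29, a contrast of 1.18 (SE 0.33, 95% interval 0.41 to 1.95, edgeR adjusted p = 0.406). Without P1 replicate 2 the step after E16 was 0.69. The other arm, miR-133a-5p, had a contrast of 1.13 (SE 0.43): 181 and 261 CPM at E11, 1535 and 1432 at E16, then 1207 and 2943 at P1, where P1 spanned the E16 values. Its step after E16 was 0.48, and -0.29 without P1 replicate 2. miR-1a-3p, the partner of miR-133a in the same clusters, had 46.7 and 28.8, 440 and 621, and 932 and 2487 CPM at E11, E16 and P1. Its contrast was 1.07 (SE 0.49, 95% interval -0.09 to 2.22).

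miR-206, which is found in myoblasts as well as fibres, was the member whose E16 mean was the highest of the 3 ages. It had 1653 and 1550 CPM at E11, 3948 and 5572 at E16, then 1799 and 4873 at P1. The P1 libraries lay far apart, one near E11 and one within the E16 range, so no peak can be read from the means. Its contrast was 1.04 (SE 0.42, 95% interval 0.05 to 2.03, edgeR adjusted p = 0.571). miR-133b, which neighbours miR-206 in the RefSeq annotation, went on upward in its means, with 37.1, 119 and 210.3 CPM at E11, E16 and P1 and a contrast of 0.45. miR-499-5p, which is carried within a slow myosin gene, had 5824 and 3002 CPM at E11, 15191 and 29852 at E16, then 58937 and 36096 at P1, a contrast of 0.64 (95% interval -0.33 to 1.61). Its partner arm miR-499-3p had 0.26 (95% interval -0.73 to 1.25).

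All 10 tested members of the muscle list (miR-1, miR-133, miR-206 and miR-499; 13 listed) had a contrast above 0, against 46.7% of all tested entries, with a median of 0.79 against -0.04 over all tested entries. Of the 10, 3 had an unadjusted p under 0.05 in edgeR, miR-133a-3p, miR-133a-5p and miR-206, against 2.77% of all tested entries on the higher side. The libraries of 7 of the 10 were ordered from E11 through E16 to P1 without overlap, against 13.1% of all tested entries upward and 12.1% downward. The median without 1 library lay between 0.80 and 1.07. The members are not independent, since both arms of miR-133a and of miR-499 are among them. miR-1a-2-5p had only 0 and 1 counts at E11, 5 and 4 at E16, then 27 and 21 at P1, so its sign carries little weight. The direction depends on the scale. Against the arithmetic mean of E11 and P1, the E16 mean of miR-133a-3p was 0.792 times as high, that of miR-1a-3p 0.607 times and that of miR-499-3p 0.5997 times, while miR-206 was at 1.93 times and miR-133a-5p at 1.29 times. Of the 10, 3 were above 1 on that scale, a share no larger than that over all tested entries. On the arithmetic scale the muscle list therefore did not stand out toward a higher E16.

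let-7b had the smallest p among named entries with E16 on the high side. It belongs to the let-7 family, which accumulates as tissues differentiate. It had 602 and 311 CPM at E11, 3349 and 3973 CPM at E16, then 3287 and 4504 CPM at P1. E11 lay far below, and the P1 libraries enclosed those of E16. The step before E16 was 3.01 and the step after it 0.09 (95% interval -0.90 to 1.08), giving a contrast of 1.46 (SE 0.35, 95% interval 0.63 to 2.29, edgeR adjusted p = 0.321). Adjusted p under the other settings lay between 0.00473 and 0.976, and 2 of 16 passed, DESeq2 (0.0431) and edgeR without the low-count filter (0.00473). Without 1 library the contrast stayed between 1.26 and 1.83. The 14 tested let-7 members had a median contrast of 0.26, and 10 of them were above 0, against 46.7% of all tested entries. That count depended on single libraries: 8 of the 14 were above 0 without E11 replicate 2, with a median of 0.09, and all 14 without E16 replicate 2. let-7a-5p and let-7j-5p, with nearly the same counts, may list the same reads. let-7b and let-7a-3p had an unadjusted p under 0.05, against 2.77% of all tested entries on the higher side, and no difference between members was tested. In RefSeq, let-7b lies beside MIRLET7A3, one of the let-7a genes, in PPARA. let-7f-5p (0.33), let-7a-5p (0.27), let-7j-5p (0.25) and let-7c-5p (-0.07), the most abundant members, all had intervals that included 0.

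Of the 7 tested epithelial miRNAs, 3 passed as lower at E16 than at E11 in edgeR (miR-205a, miR-205b and miR-200a-5p), against 4.15% of all tested entries. At an unadjusted p under 0.05 in edgeR there were 6 of the 7, against 43 of 289 entries. miR-205b had 2836 and 3245 CPM at E11, 84.7 and 62.0 at E16, then 59.5 and 23.2 at P1. E11 did not overlap with the later ages, and E16 lay just above P1. The steps were -5.37 and -0.82, and the contrast was -2.27 (SE 0.51, 95% interval -3.47 to -1.08, edgeR adjusted p = 0.321). The range of adjusted p over the other settings was 0.00282 to 0.976, and 2 of 15 passed, DESeq2 and edgeR without the low-count filter. miR-205a had 6408 and 3552 CPM at E11, 83.1 and 49.6 at E16, then 43.5 and 3.39 at P1, a contrast of -2.37 (SE 0.91) that was -0.95 without P1 replicate 1. miR-203a, an epidermal miRNA, had 660 and 362 CPM at E11, 204.6 and 37.2 at E16, then 971 and 7.91 at P1. The P1 libraries spanned all others, and the contrast of -2.04 was 0.95 without P1 replicate 1.

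The 7 tested epithelial members all had a contrast below 0, with a median of -2.27, and 2 had an unadjusted p under 0.05 against 4.84% of all tested entries. That median was -3.72 without E16 replicate 1 and -0.95 without P1 replicate 1, where 1 member lay above 0. The count of signs is weak support. miR-200a-5p had 15 and 56 counts at E11, 2 and 1 at E16, then 1 and 0 at P1. With both later ages near the floor, a contrast below 0 was almost fixed for it. miR-200a-5p, miR-200b-3p and miR-429-3p also come from neighbouring genes in RefSeq, so the members are not independent. The share of counts of this list moved over the same interval as the muscle miRNAs, and its part in the muscle values was not tested. A fit without the list called 0 entries in the contrast, as did the fit with it, so these counts cannot show whether the list matters. Of the 3 erythroid miRNAs, 0 had an unadjusted p under 0.05 in the contrast. miR-451, abundant in red blood cells, had 2643 and 2829 CPM at E11, 5130 and 2387 at E16, then 32080 and 6939 at P1, and the contrast was -0.96 (95% interval -2.42 to 0.51). The median of the 3 erythroid members was -0.93, and -0.17 without P1 replicate 1, where 1 of the 3 lay above 0.

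**Figure D3:**
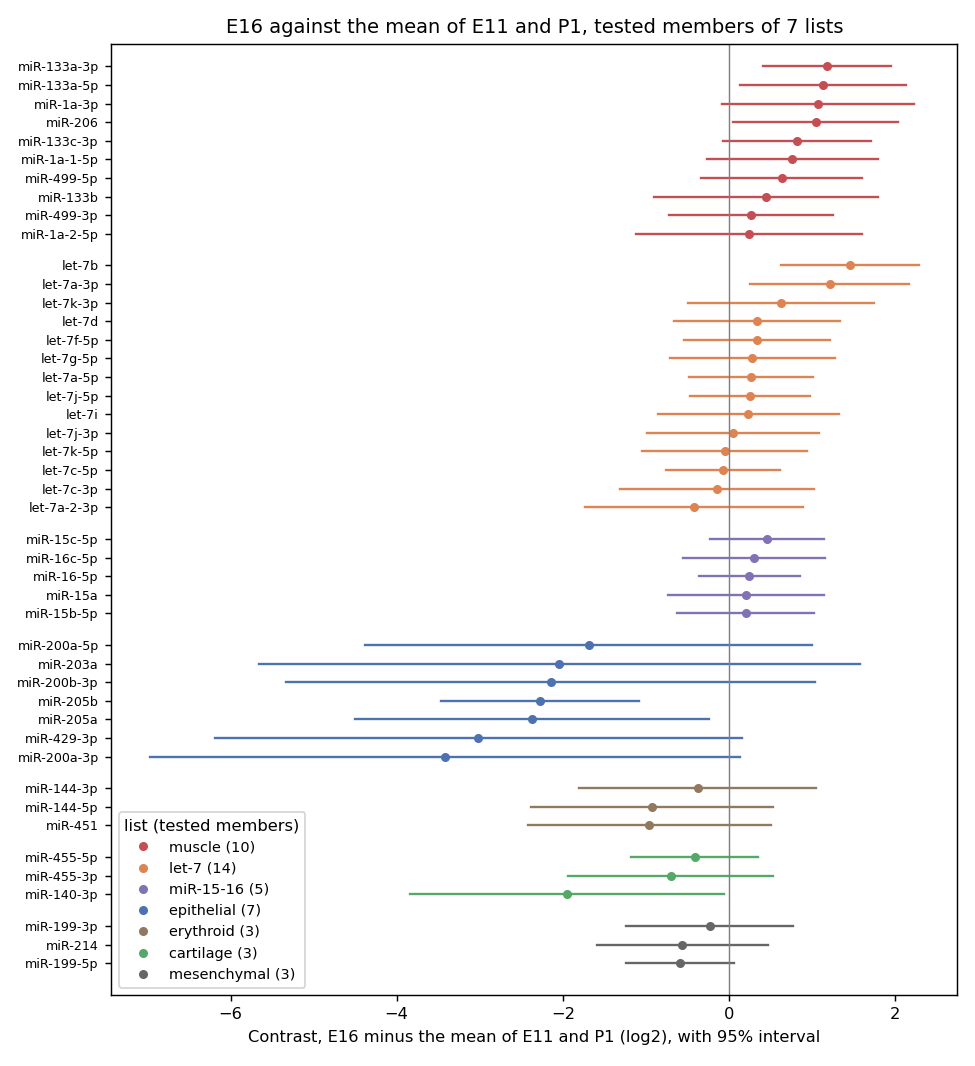
Contrast of E16 against the mean of E11 and P1 (log2, points) with its 95% interval (lines) for the tested members of 7 miRNA lists, coloured by list. All 10 muscle members lie above 0 and all 7 epithelial members below it, and 6 of the 7 epithelial members have wider intervals than any member of the other lists shown.

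Among abundant miRNAs with no difference between the steps at this precision, miR-148a-3p had a contrast of 0.16 (95% interval -0.42 to 0.73), with 68323 and 53748 CPM at E11, 74647 and 80974 at E16, then 76489 and 83106 at P1. miR-22-3p, abundant in striated muscle, had 24250.1 and 30743 CPM at E11, 56806 and 58188 at E16, then 85897 and 83248 at P1. Its ages did not overlap, and its steps of 1.06 and 0.56 gave a contrast of 0.25 (95% interval -0.32 to 0.83). miR-10b-5p, encoded in a HOX cluster, had 0.15 (-0.49 to 0.79). For these 3 the interval leaves no room for a contrast as large as 1. miR-10a-5p had a wider interval (-0.82, -2.49 to 0.85). Its E11 libraries held 12845 and 93330 CPM, and the contrast was 0.19 without E11 replicate 2.

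Of the lists not yet described, the medians of the contrast lay close to that of all tested entries for miR-17-92 (-0.07, 16 tested), miR-30 (0.11, 8 tested), miR-181 (0.02, 3 tested), HOX-embedded miR-10 and miR-196 (0.15, 5 tested), neural miR-9 (-0.13, 2 tested) and the clusters of miR-23 with miR-27 and miR-24 (-0.16, 4 tested). Lower medians were found for miR-221 with miR-222 (-0.68, 3 tested), miR-125 with miR-99 and miR-100 (-0.32, 5 tested), miR-130 with miR-301 (-0.28, 10 tested), miR-26 (-0.38, 2 tested), miR-29 (-1.61, 2 tested) and the leukocyte list (-0.25, 8 tested). Endothelial miR-126 had 0.23 (2 tested), and miR-193 with miR-365 had 0.24 (4 tested). The median of miR-29 was -0.06 without E11 replicate 2 and -3.37 without E16 replicate 1. Only miR-29b-3p among the members of these lists had an unadjusted p under 0.05. miR-34a-5p, the sole tested member of miR-34 with miR-449, had 0.61, which turned to -0.66 without E16 replicate 1 and went to 1.42 when replicate 2 was left out. miR-2954 had -1.53, and 0.18 without P1 replicate 2, the library in which it was high. No member of miR-302 with miR-367, which mark pluripotent cells, passed the filter.

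E16 differed from E11 for 19 of 289 entries (6.57%), 7 higher at E16 (2.42%) and 12 lower (4.15%), by edgeR with Benjamini-Hochberg adjustment. P1 differed from E16 for 0 (0%), with 37 at an unadjusted p under 0.05 (12.8%), and DESeq2 called 2. Without either E16 library the first count was 0. To see which miRNAs moved mostly before or mostly after E16, the entries past the threshold for P1 against E11 were split at E16. That comparison does not use the E16 levels themselves, only the spread between the E16 libraries. It called 88 of 289 entries (30.4%), 41 higher at P1 (14.2%) and 47 lower (16.3%), or 20 higher and 64 lower with scaling by library totals alone. Of the 41 that rose, 25 had the larger part of their log2 change before E16, and a median of 56.9% of it came before E16. Of the 47 that fell, 35 had the larger part before E16, with a median of 72.9%. For a rise this is the same as a contrast above 0, which 135 of all 289 tested entries had. For a fall it is the same as a contrast below 0, which 154 of the 289 had. Some falls passed the low-count filter only through E11, such as miR-1677-3p, with summed counts of 20, 3 and 6 at E11, E16 and P1. Such entries can appear only as falls. With both later ages near the floor, a larger part before E16 was almost fixed for them. With a mean of at least 50 counts as the filter, 20 of 29 rises and 22 of 26 falls had the larger part before E16. The medians were then 64.8% and 73.7%. With scaling by library totals alone the medians were 71.8% for rises, where 17 of 20 had the larger part before E16, and 67.3% for falls, so the order of the medians turned. Without P1 replicate 2 the medians were 57.7% of 16 entries that rose and 91.2% of 7 that fell. Without each library in turn the medians lay between 57.7% and 75.5% for rises and between 60.0% and 91.2% for falls, over between 5 and 35 entries. The split itself was not significant for any single entry, since none passed in the contrast, and 13 of the 88 had an unadjusted p under 0.05 there.

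**Figure D4:**
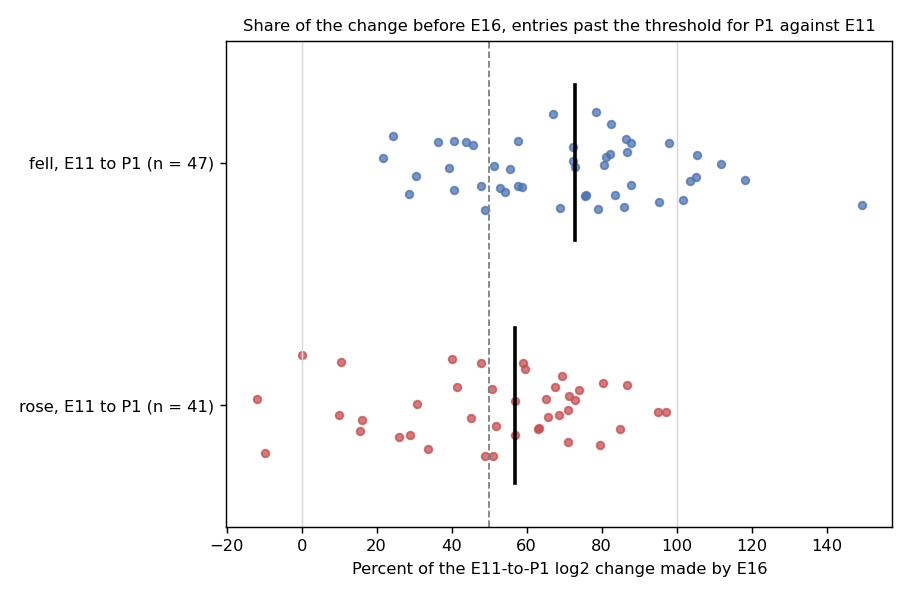
Percent of the log2 change from E11 to P1 that was made by E16, for the 41 entries that rose (red) and the 47 that fell (blue) between E11 and P1; black bars are medians, the dashed line is 50%, and vertical scatter is arbitrary. The medians are 56.9% and 72.9%, and values under 0% or over 100% mark entries whose E16 mean lay outside the other ages.

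Early risers among the named entries included let-7b, with 97.1% of its log2 change by E16, and miR-193a-3p, with 95.1%. miR-193a-3p had 289 and 258 CPM at E11, 1229 and 589 at E16, then 930 and 1003 at P1. Of the 10 tested muscle members, 8 passed the threshold as higher at P1 than at E11, against 14.2% of all tested entries. Those named here made between 56.9% and 85.0% of their log2 change by E16, against a median of 56.9% over all rises. miR-133a-5p was at 85.0%, miR-133a-3p at 73.9%, miR-133c-3p at 71.4%, miR-1a-3p at 69.4%, miR-499-5p at 68.6%, miR-499-3p at 56.9% and miR-1a-2-5p at 56.9%. The share of miR-1a-2-5p is poorly determined, with 0 and 1 counts at E11. Its ratio of E16 to E11 was 4.20 (95% interval 0.582 to 184, counting error only). miR-126-5p, an endothelial miRNA, was at 71.1%, and its other arm miR-126-3p at 51.1%. Some of these calls rest on single libraries. Of the rises, miR-133a-3p, miR-133c-3p, miR-1a-3p and miR-126-5p passed in each of the 6 fits that left out 1 library. miR-193a-3p and miR-1a-2-5p passed in none of them, miR-126-3p only without E11 replicate 2, and let-7b and miR-499-3p lost their calls without E16 replicate 2. miR-133a-5p lost its call without E11 replicate 1 or E16 replicate 2, and miR-499-5p without E16 replicate 2 or P1 replicate 1. The rise of let-7b was 3.10 on the log2 scale and 3.70 without E11 replicate 1. The rise of miR-1a-3p over the whole span was 5.52 on the log2 scale and 4.68 without P1 replicate 2.

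Late risers were of other kinds. miR-146a-5p, induced in inflammatory signalling, had 17.5 and 14.4 CPM at E11, 23.98 and 17.6 at E16, then 106.05 and 82.0 at P1, and made 15.6% of its log2 change by E16. miR-146b-5p was at 9.89%, and miR-146a-3p at -11.99%, its E16 mean being a little below that of E11. The far more abundant miR-146c-5p did not rise. It had 19247 and 8389 CPM at E11, 8488 and 8684 at E16, then 8477 and 8003 at P1. miR-24-3p, of the miR-23 and miR-27 clusters, had 339 and 275 CPM at E11, 305 and 309 at E16, then 943 and 738 at P1, with 0.0634% of its log2 change before E16. miR-23b-3p and miR-27b-3p, its neighbours in RefSeq, made 40.2% and 41.6% of theirs by E16. miR-451 was at 16.17% and miR-2954 at 10.4%. miR-2954 owed its rise of 3.88 to P1 replicate 2, without which it was 0.55. The step after E16 passed for none of these. The calls over the whole span held without 1 library in few cases: miR-146a-5p and miR-451 passed only without P1 replicate 2, miR-23b-3p only without E11 replicate 2, miR-2954 only without P1 replicate 1, and miR-24-3p, miR-27b-3p, miR-146a-3p and miR-146b-5p in no such fit. The rise of miR-146b-5p lay between 2.13 and 4.74 without 1 E11 library. The rise of miR-451 was 2.83, and 1.29 without P1 replicate 1.

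Among the entries that fell, epithelial miR-429-3p had 95.3% of its log2 change by E16, miR-205b 86.7%, miR-200b-3p 86.6%, miR-205a 80.7% and miR-200a-5p 72.4%. The share of miR-200a-5p rests on a summed count of 3 at E16 and 1 at P1 and is poorly determined. The falls of miR-205b and miR-200a-5p passed in each of the 6 fits without 1 library, that of miR-205a in all but the fit without E16 replicate 2, and those of miR-429-3p and miR-200b-3p in none. The size of these falls depended on single libraries too: that of miR-205a was -7.71, and -10.54 without P1 replicate 1. miR-31-5p had 101.7%, but this rests on 1 library: it had 23.4 and 1841 CPM at E11, 0 and 4.13 at E16, then 3.02 and 1.13 at P1, and it passed only in the fit without E11 replicate 1, while its log2 change of -8.71 was -3.41 without E11 replicate 2. miR-222a, whose cluster restrains cell-cycle inhibitors in mammals, had 4071 and 4874 CPM at E11, 2035 and 1329 at E16, then 1382 and 1219 at P1, with 79.2% by E16. The E16 and P1 libraries of miR-222a lay close, with 1 E16 library below the higher of P1. Late among the falls were miR-122-5p, a liver miRNA, at 24.3%, and miR-181b-5p at 40.6%. miR-122-5p had 5.84 and 87.9 CPM at E11, 30.4 and 23.8 at E16, then 4.31 and 3.96 at P1. Its E11 libraries enclosed both E16 values, and without E11 replicate 2 its log2 change over the whole span was -0.51. That of miR-181b-5p was -1.86, and -0.68 without E11 replicate 1.

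Rows outside the tests added little. The 557 untested entries had a median summed count of 3 and at most 90 over the 6 libraries. On log2(CPM + 1), 41 of all 846 rows had a contrast above 1 and 55 below -1, of which 24 and 28 were untested. With 10 in place of 1 as the added value these numbers were 9 and 15. Of all rows, 7 were listed in both E16 libraries and no other, with at most 4 counts in sum, compared with 9 for E11 and 25 for P1. The libraries were deepest at P1 and shallowest at E11, so these numbers cannot be compared between ages as they stand.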

How the data were processed

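miRNA libraries were made by Illumina protocols from Trizol-extracted RNA, per the labels. The submitters' processing notes name Trim Galore, Bowtie, TopHat, Cufflinks and galGal4; their roles and the program that assigned reads to miRNAs are not given in the sources used here. What the authors deposited was taken as counts: all values are whole numbers with differing totals, although the file headers call them FPKM. A header that was right would make these tests unsuitable. Of 846 entries 534 carry miRBase-style names, given without the species prefix, and 312 are provisional.

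The counts fit used edgeR 4.0.16 under R 4.3.3 (filterByExpr with a minimum count of 10 and total of 15, TMM, quasi-likelihood F-tests, 1 coefficient per age, all 6 samples, 3 residual degrees of freedom; Benjamini-Hochberg over 289 entries, threshold 0.05). The minimum count applies at the median library total, so fewer counts suffice in the shallower E11 libraries. The biological coefficient of variation was 0.466. SE is the log2 value over the square root of F, and 95% intervals use the t distribution. The peak test takes the larger p of the 2 steps. DESeq2 1.42.0, limma 3.58.1 and other settings were alternatives. The procedure was also run on simulated counts with planted changes at E16, and no result above rests on that run.

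The rule for miRNAs to name took the 8 named miRNAs with the smallest p each way, 10 rises and 10 falls from E11 to P1, those with E16 outside both ages, the 10 most abundant, and the 4 most abundant members per list, 102 in all, some of which enter only through the counts and medians of their lists; members, lists and this rule were chosen with earlier results of these data known. Other named miRNAs were chosen after their values were seen. In 10 pairs of entries, such as let-7j-5p with let-7a-5p, or miR-31-5p, miR-10b-5p and miR-181a-5p with 1 provisional entry each, counts agreed within 10% or 3 counts, so the same reads may be listed under both names. The labels do not say that samples came from separate animals, and the p-values then reflect no more than sample-to-sample spread, which may be technical. Replicate counts differed beyond sampling noise (chi-square per degree of freedom 171 to 489). Intervals on ratios are exact binomial and cover counting error only. RefSeq (GRCg7b) was used only for neighbouring genes; 100 of 102 miRNAs named by the rule matched it.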

Additional observations from a re-analysis of the deposited data

How the results depend on the processing

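Entries called in the contrast of E16 with the mean of E11 and P1 numbered 0 in edgeR, 13 without the low-count filter and 3 with DESeq2, and between 0 and 2 without 1 library; the other settings called 0. For E16 against E11 the count was 19 and became 46 without the filter, 10 with a mean of at least 50 counts, 38 with DESeq2, 12 with named entries only, and between 0 and 11 without 1 library, with 0 without either E16 library. For P1 against E16 it was 0 and became 13 without the filter, 2 with DESeq2, and between 0 and 1 without 1 library. For P1 against E11 it was 88 and became 55 with a mean of at least 50 counts, 30 with the replicate number as a block, and between 10 and 61 without 1 library; library totals without TMM gave 20 rises and 64 falls in place of 41 and 47. No setting called a peak or dip beyond both ages. Same-numbered samples deviated together for E16 and P1 (correlation 0.32) and not for the other pairs of ages (0.00 and -0.03). Whether E16 and P1 samples of the same number share a factor was not tested, and the main fit did not pair samples by number. With the block the contrast still called 0.

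Against the arithmetic mean of E11 and P1 the log2 contrast turned to -0.34 for miR-133a-3p, -0.19 for miR-133c-3p, -0.62 for miR-1a-2-5p, -0.72 for miR-1a-3p, -0.74 for miR-499-3p, -0.21 for miR-499-5p and -0.058 for miR-133b, since an arithmetic mean weighs the higher age more; miR-1a-2-5p also had -0.12 with a pseudocount of 10, and let-7c-5p turned to 0.042 without the low-count filter. Without 1 library the contrast ran from -0.70 to 0.30 for miR-1720-3p from -1.94 to 0.18 for miR-2954, from -0.20 to 0.17 for let-7c-5p, from -1.27 to 0.19 for miR-10a-5p, from -0.054 to 0.49 for miR-10b-5p, from -3.72 to 0.95 for miR-203a and from -0.66 to 1.42 for miR-34a-5p. Of the 102 miRNAs taken by the naming rule, 35 turned sign in at least 1 fit without 1 library, 0 of them with an unadjusted p under 0.05 in the fit of all libraries. Over all alternatives for the miRNAs carried through every setting, among them all whose contrast is printed, 1078 values kept direction and side of the threshold, 20 turned, and 9 passed the threshold, without the filter or with DESeq2. Depth limits what can be said of scarce miRNAs at E11, where the libraries were shallowest, and so do 2 samples per age. The cause of the other shifts was not tested.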
